A study of Arabidopsis thaliana with 4 samples.

Results

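PYK10 and NAI2 encode the main β-glucosidase and a structural protein of endoplasmic reticulum (ER) bodies in Arabidopsis thaliana. They were taken as the probe sets that the platform's gene table assigns to PYK10 (also called BGLU23, locus AT3G09260) and to NAI2 (locus AT3G15950). Each gene had 1 such probe set, which makes 2 of the 13286 genes that could be named with a locus, read by 13436 of 22746 non-control probe sets. Both genes lie on chromosome 3, with 232 measured and named genes between them. The pair was chosen by its signals in AAF-OX and Col-0, which were known to be lower in AAF-OX. That difference is therefore described here without a test.

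ER bodies are spindle-shaped compartments that bud from the endoplasmic reticulum in plants of the Brassicales. They store β-glucosidases at very high concentration, apart from their substrates, and are held to release them when tissue is damaged. PYK10 is the main β-glucosidase of the ER bodies of seedlings and roots, and it can hydrolyse indole glucosinolates. NAI2 is an ER protein needed for the bodies to form, and the basic helix-loop-helix transcription factor NAI1 is needed for the expression of both. In rosette leaves the constitutive bodies are scarce, and wounding or jasmonate induces others that contain the related β-glucosidase BGLU18.

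The RNA came from rosette leaves of 3-week-old plants under 16 h light and 8 h dark. AAF-OX, a transgenic line in the Col-0 background that overexpresses AAF, was set against wild-type Col-0, with 2 Affymetrix arrays per genotype. The promoter of the transgene, the number of lines and the number of plants per array are not given in the sources used here. The series names 2 independent sets of arrays, and each set is taken to hold 1 AAF-OX and 1 Col-0 array, called a pair here. It is not stated whether the plants of each set were grown separately. The p-values therefore reflect how far these 4 arrays vary, and part of that variation may be technical.

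The median signal of an array was 169.0 to 180.2, and AAF itself was higher on both AAF-OX arrays. AAF, taken from knowledge of the study as locus AT1G66330, had signals of 7442 and 7706 in AAF-OX, against 760 and 1337 in Col-0. The leaf marker RCA, which encodes rubisco activase, was at 23017 and 27154 in AAF-OX and at 25135 and 28152 in Col-0. Only 1 of 10 leaf markers and 2 of 16 root markers had a named probe set, and none of 5 flower markers did. The root hair expansin genes EXPA7 and EXPA18 stayed at or below 49.5 on all 4 arrays, and their summed signal was 23.5 to 55.4 in AAF-OX and 12.2 to 57.0 in Col-0. EXPA7 was at 19.9 and 49.4 in AAF-OX and at 4.63 and 7.57 in Col-0, and EXPA18 was at 3.55 and 6.06 in AAF-OX and at 7.58 and 49.5 in Col-0. Both named root markers were thus near the floor of the arrays in both genotypes.

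PYK10 and NAI2 both had lower signals in AAF-OX than in Col-0 in each pair of arrays. PYK10 was at 629 in AAF-OX against 1075 in Col-0 in pair 1, and at 1527 against 1974 in pair 2. Its AAF-OX signal was therefore 58.5% of the Col-0 signal in pair 1 and 77.4% in pair 2. The AAF-OX array of set 2 was brighter for PYK10 than the Col-0 array of set 1, so the groups overlapped, and the means were 1078 ± 635 in AAF-OX and 1525 ± 635 in Col-0 (SD, n = 2 each).

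For NAI2 the genotypes separated. Its signal was 210.5 and 192 in AAF-OX, against 339.8 and 312 in Col-0, with means of 201.0 ± 13.4 and 325.9 ± 19.7 (SD, n = 2 each). The AAF-OX signal was 61.9% of the Col-0 signal in pair 1 and 61.4% in pair 2. The difference between genotypes thus exceeded the spread within either genotype for NAI2 and was smaller than that spread for PYK10. With 1 array per genotype in each set, the spread within a genotype is the difference between the sets. In leaf tissue as a whole, fewer cells that express the genes and less RNA per cell cannot be told apart.

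**Figure D1:**
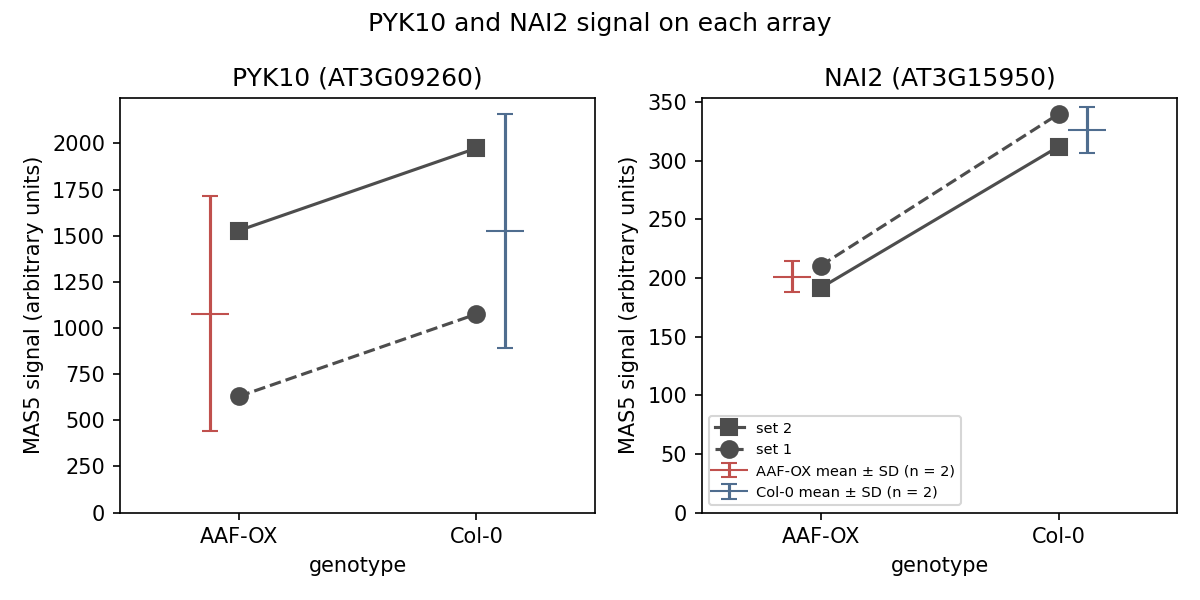
MAS5 signal (arbitrary units, vertical axis from 0) of PYK10 and NAI2 on each array by genotype. Squares joined by a solid line are set 2, circles joined by a dashed line are set 1, and coloured bars are the mean ± SD of 2 arrays. Both lines end higher at Col-0 for each gene. The sets lie far apart for PYK10 (629 and 1075 in set 1) and close together for NAI2 (210.5 and 339.8 in set 1).

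On the scale used for the fits, log2(signal + 50), PYK10 differed by -0.73 in pair 1 and -0.36 in pair 2, a mean of -0.54. NAI2 differed by -0.58 in each pair and on average. These correspond to 0.686-fold for PYK10 and 0.668-fold for NAI2, and adding 50 makes the difference of the dimmer NAI2 probe set appear smaller than it is in signal. Both of these 2 genes were lower in both pairs, as were 31.3% of the 13592 probe sets tested, and for NAI2 alone the groups did not overlap, as for 10.9% of them with AAF-OX lower. The median difference of all tested probe sets was -0.02. The PYK10 value depends on having both arrays of a set. Leaving out the AAF-OX array of set 1 turned it to 0.06, and leaving out that of set 2 made it -1.15. Without the Col-0 array of set 1 it was -0.97, and without that of set 2 it was -0.12, whereas NAI2 stayed at -0.64 to -0.53 with any 1 array left out.

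The contrast between the sets was not used to choose the genes and could be tested. PYK10 rose in set 2 and no difference was detected for NAI2. In AAF-OX, PYK10 was at 1527 in set 2 against 629 in set 1. In Col-0 it was at 1974 in set 2 against 1075 in set 1. This is 2.04-fold on the scale of signal plus 50, a log2 difference of 1.03 ± 0.13 (SE; limma's adjusted p = 7.61e-05 with a genotype term). All PYK10 values of set 2 lay above all those of set 1, with a log2 difference of 1.22 within AAF-OX and 0.85 within Col-0. NAI2 was at 192 and 312 in set 2 and at 210.5 and 339.8 in set 1, a log2 difference of -0.11 ± 0.16 (95% interval -0.45 to 0.24, limma's adjusted p = 0.617). The difference between both genes in this contrast was not tested. One of the 2 genes thus passed, where limma called 39.4% of all tested probe sets (17.3% higher and 22% lower in set 2). With 1 array left out, in a fit that then has no genotype term, the PYK10 call was lost in 2 of 4 cases. Limma's adjusted p was 0.0595 without the AAF-OX array of set 1 and 0.0558 without the Col-0 array of set 2.

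**Figure D2:**
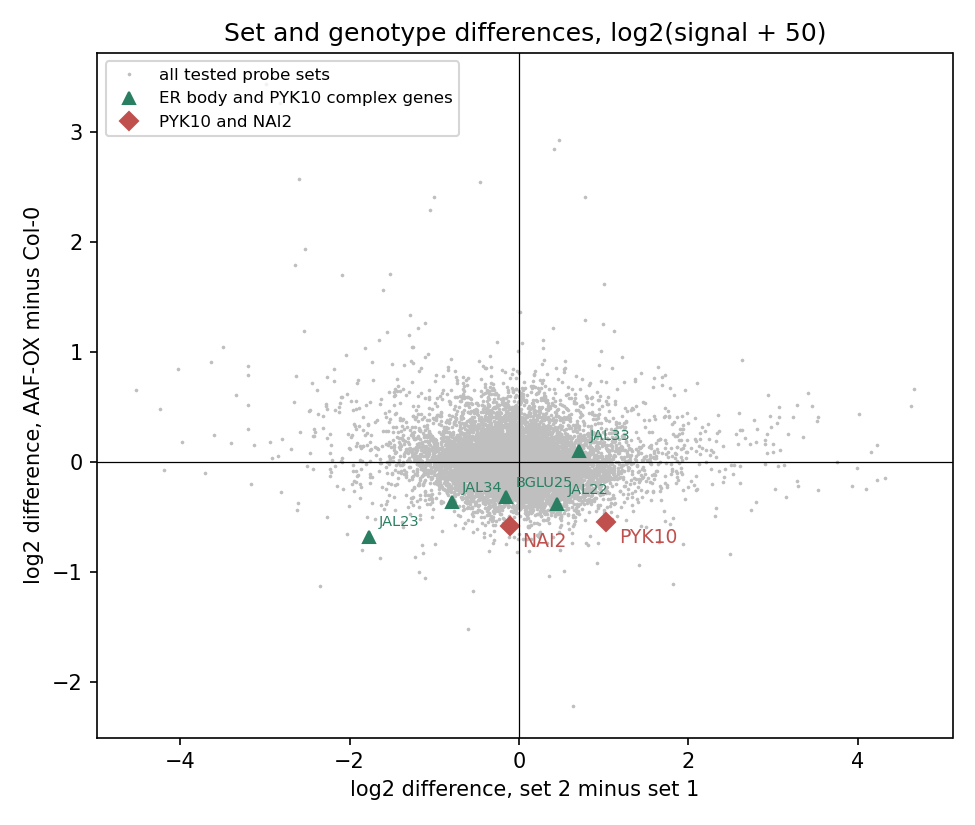
Mean log2 difference between genotypes (vertical axis, AAF-OX minus Col-0) against that between sets (horizontal axis, set 2 minus set 1) for 13592 tested probe sets (grey), PYK10 and NAI2 (diamonds) and the 5 measured ER body and PYK10 complex genes (triangles). PYK10 and NAI2 lie at -0.54 and -0.58 on the vertical axis and at 1.03 and -0.11 on the horizontal axis.

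On the lists of ER body genes and of PYK10 complex genes, 5 further genes passed the signal filter, of 23 listed and 9 with a named probe set. Of the 5, 1 is on the ER body list and 4 are on the PYK10 complex list. Without a set term limma called 0 of the 13592 probe sets between genotypes (117 at an unadjusted p under 0.05). With the sets as a block it called 1.55% (210 probe sets, 1.34% higher and 0.206% lower). Under the blocked fit 0 of these 5 genes were called, although 4 had an unadjusted p under 0.05, where 11% of all tested probe sets (1495) had one in that fit. The same 4 had lower signals in AAF-OX in both pairs, as had 31.3% of all tested probe sets. The median log2 difference of all 5 genes was -0.36. Without the block, 0 of the 5 had an unadjusted p under 0.05.

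BGLU25, a β-glucosidase of the same subfamily as PYK10, was at 394 and 342 in AAF-OX, against 495 and 446 in Col-0. Both AAF-OX arrays lay below both Col-0 arrays, by a log2 difference of -0.32 ± 0.14 (SE; adjusted p = 0.422 in limma's blocked fit). The other members of that list with a named probe set were dim. NAI1, named although it failed the filter, was at 121.0 and 88.2 in AAF-OX, against 38.9 and 91.8 in Col-0. These NAI1 signals are too low to compare between genotypes. The signals of BGLU19, BGLU20 and BGLU24 were at most 66.8 on every array, also too low to compare.

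The PYK10 complex is an aggregate that forms when ER body contents meet the cytosol, and it contains jacalin-related lectins (JALs), sugar-binding proteins. Of 4 measured lectin genes, JAL22, JAL23 and JAL34 were lower in AAF-OX in both pairs, as were 31.3% of all tested probe sets. JAL33 was not lower in both pairs. JAL23 was at 210.2 and 48.2 in AAF-OX, against 487 and 71.6 in Col-0, a log2 difference of -0.68 ± 0.21 (SE; adjusted p = 0.186 in limma's blocked fit). The pairs disagreed in size, at -1.04 in pair 1 and -0.31 in pair 2, where JAL23 signals were close to the floor. JAL34 was at 530.1 and 327 in AAF-OX and at 791 and 379.7 in Col-0 (log2 difference -0.36, limma's adjusted p = 0.354).

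JAL22 was at 175 and 276 in AAF-OX and at 259 and 351 in Col-0 (log2 difference -0.38, limma's adjusted p = 0.388). JAL33 was at 165 and 347 in AAF-OX and at 175 and 278 in Col-0 (log2 difference 0.11, limma's adjusted p = 0.909). Between sets, all 4 lectin genes passed limma's threshold, 2 in each direction, in a contrast where 39.4% of all tested probe sets were called (17.3% higher and 22% lower in set 2). JAL22 and JAL33 rose in set 2, by log2 differences of 0.45 and 0.71 (limma's adjusted p = 0.0393 and 0.00565). JAL23 and JAL34 fell in set 2, with log2 differences of -1.77 and -0.80 (limma's adjusted p = 5.43e-05 and 0.00106). Between sets, 2 of the lectin genes thus moved in the direction of PYK10 and the other 2 in the opposite one.

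**Figure D3:**
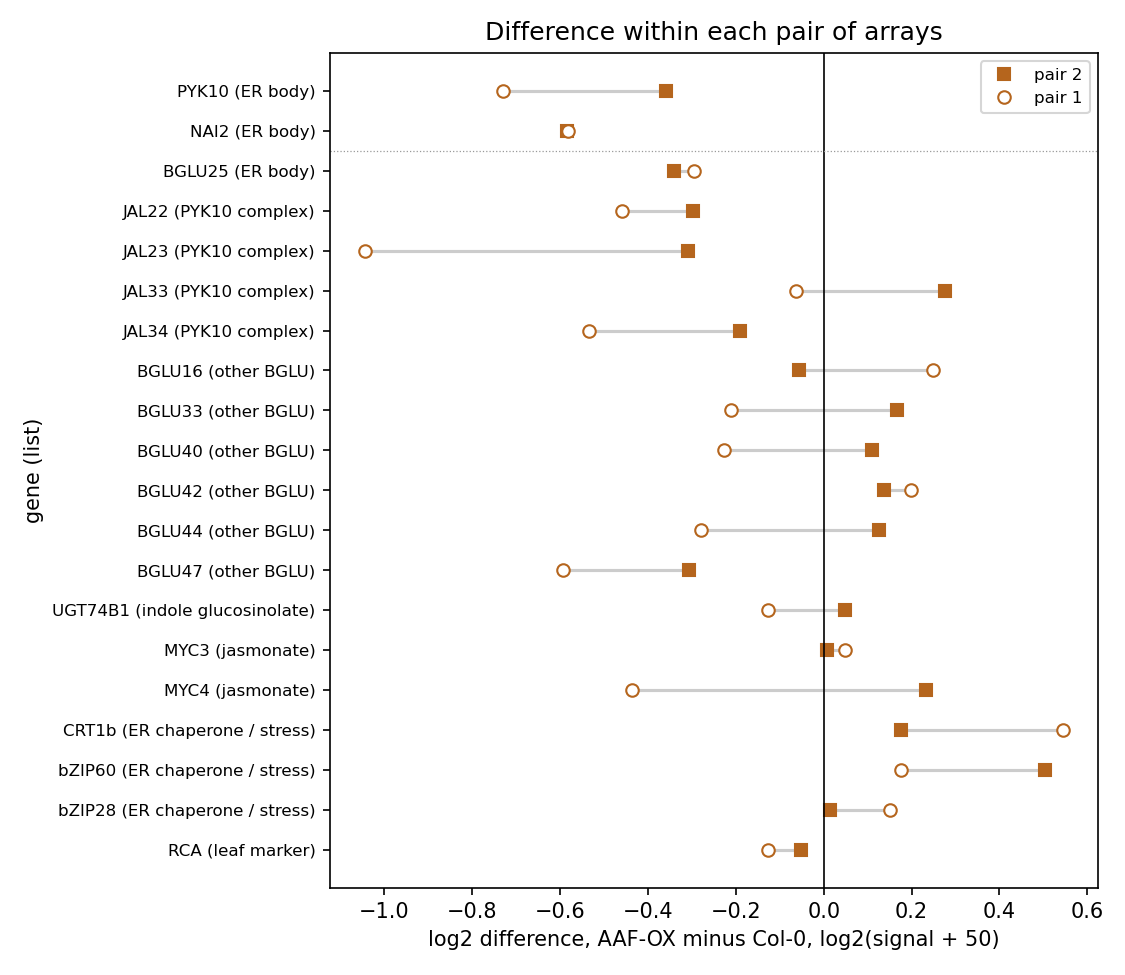
Log2 difference between AAF-OX and Col-0 (horizontal axis, log2(signal + 50)) within pair 1 (open circles) and pair 2 (filled squares) for PYK10, NAI2 and the 18 tested genes of the lists (vertical axis). PYK10, NAI2, BGLU25, JAL22, JAL23 and JAL34 lie left of 0 in both pairs, as do BGLU47 and the leaf marker RCA. JAL33 lies at -0.06 and 0.28.

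PYK10 belongs to a large family of glycoside hydrolases, and 17 of the 38 other β-glucosidase genes on the family list had a named probe set. Of these, 6 passed the filter. Limma with the block called 0 of the 6 between genotypes, where it called 1.55% of all tested probe sets. In that fit 0 of the 6 had an unadjusted p under 0.05, against 11% of all tested probe sets. The median log2 difference of the 6 genes was -0.04. BGLU47 was at 59.4 and 115.2 in AAF-OX, against 115.3 and 154 in Col-0, a log2 difference of -0.45 (limma's adjusted p = 0.472). The AAF-OX arrays of BGLU47 lay below the Col-0 arrays, the upper one by less than 1 unit. BGLU42 was at 374 and 473 in AAF-OX, against 319.6 and 426 in Col-0, and its groups overlapped (log2 difference 0.17, limma's adjusted p = 0.784). Between sets, limma called 1 of these 6 genes higher and 1 lower in set 2, where it called 39.4% of all tested probe sets. Both, BGLU44 and BGLU16, are named after their values were seen. BGLU44 rose as PYK10 did. It was at 7303 and 6689 in set 2 and at 2655 and 3231 in set 1 (log2 difference 1.24, limma's adjusted p = 8.3e-06). BGLU16 fell (log2 difference -0.58, limma's adjusted p = 0.00343).

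Few genes of the substrate pathway, of jasmonate signalling and of the ER in general were tested. These were 1 of 14 listed for indole glucosinolate synthesis, 2 of 12 for jasmonate signalling and wounding, and 3 of 17 for the ER. Limma with the block called 0 of these 6 genes between genotypes, where it called 1.55% of all tested probe sets. Of the 6, 2 had an unadjusted p under 0.05 in that fit, against 11% of all tested probe sets. UGT74B1, a glucosyltransferase of glucosinolate synthesis, was at 1290 and 1180 in AAF-OX, against 1414 and 1139 in Col-0 (log2 difference -0.04, limma's adjusted p = 0.962). MYC3 and MYC4, transcription factors of the jasmonate response, had log2 differences of 0.03 and -0.10 (limma's adjusted p = 0.979 and 0.920). These 2 jasmonate regulators thus showed no common direction.

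In both pairs the 3 tested genes of ER folding and stress had higher signals in AAF-OX, as had 24.4% of all tested probe sets, with a median log2 difference of 0.34. The calreticulin gene CRT1b, an ER chaperone, was at 2903 and 2535 in AAF-OX, against 1975 and 2237 in Col-0 (log2 difference 0.36, limma's adjusted p = 0.230 with the block). CRT1b lies in a stretch at the start of chromosome 1 that holds 305 measured and named genes. In that stretch AAF-OX was the higher genotype in both pairs for 87.9% of genes (21.7% among the other 6844 nuclear genes). The bounds of the stretch were set with earlier results of these data known, so these shares are a description. The part of that stretch in the CRT1b value was not tested. The unfolded protein response regulator bZIP60 was at 1015 and 1399 in AAF-OX, against 893 and 972 in Col-0 (log2 difference 0.34, limma's adjusted p = 0.321), and bZIP28 had a log2 difference of 0.08. The AAF-OX arrays lay above the Col-0 arrays without overlap for CRT1b and bZIP60, as for 7.86% of all tested probe sets, the direction opposite to PYK10 and NAI2.

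The genes around PYK10 and NAI2 on chromosome 3 differed little between genotypes on average. The 10 nearest measured and named genes around PYK10, 5 on each side, had a median log2 difference between genotypes of -0.01 (-0.42 to 0.46). Those around NAI2 had -0.07 (-0.17 to 0.08). Limma with the block called 0 of the 10 in each case, where it called 1.55% of all tested probe sets. The nearest measured and named genes on either side of PYK10, AT3G09250 and AT3G09310, had log2 differences of -0.01 and -0.38. Those nearest to NAI2 on either side, AT3G15940 and AT3G15970, had 0.02 and -0.10. PYK10 and NAI2, which were chosen for being lower in AAF-OX, are not set against these ranges.

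Finally, the 7278 other named and tested probe sets were ordered by how closely they followed each gene over the 4 arrays. Likeness was the Euclidean distance between log2(signal + 50) values, each taken relative to the gene's own mean. The genotype difference that led to the choice of the pair enters this distance, so the order is a description. PYK10 and NAI2 were at a distance of 1.15. The median distance of these probe sets was 1.27 from PYK10 and 0.70 from NAI2. NAI2 thus lay nearer to PYK10 than the median, and PYK10 lay farther from NAI2 than the median. NAI2 stood at place 2781 in the order from PYK10, and PYK10 at place 6499 in the order from NAI2, so the ER body genes were not near neighbours of each other.

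The probe sets nearest to PYK10 were those of BETA-VPE, a vacuolar processing enzyme known for maturing seed storage proteins, at 0.116, and of AT3G59110 at 0.141. Next came AT4G32030 at 0.193, AT3G48460 at 0.200 and AT4G24175 at 0.249. BETA-VPE was at 38.9 and 142.0 in AAF-OX, against 82.0 and 195.1 in Col-0, and its log2 difference was -0.46 between genotypes. As with PYK10, its groups overlapped and set 2 was brighter in both genotypes. The AAF-OX signals of set 1 were close to the floor for BETA-VPE (38.9) and AT4G24175 (47.4). The log2 differences of the 5 genes between sets were 0.84 to 1.08, which belongs to the pattern by which they were found.

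The probe sets nearest to NAI2 were those of AT3G08890 at 0.114, AT1G47970 at 0.148, AT2G21080 at 0.157, AT3G61160 at 0.172 and AT3G26782 at 0.180. AT3G08890 was at 342 and 352 in AAF-OX, against 577 and 507 in Col-0, a log2 difference of -0.57 between genotypes and -0.07 between sets. Each of the 5 had both AAF-OX arrays below both Col-0 arrays, which is also the pattern by which they were found.

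**Figure D4:**
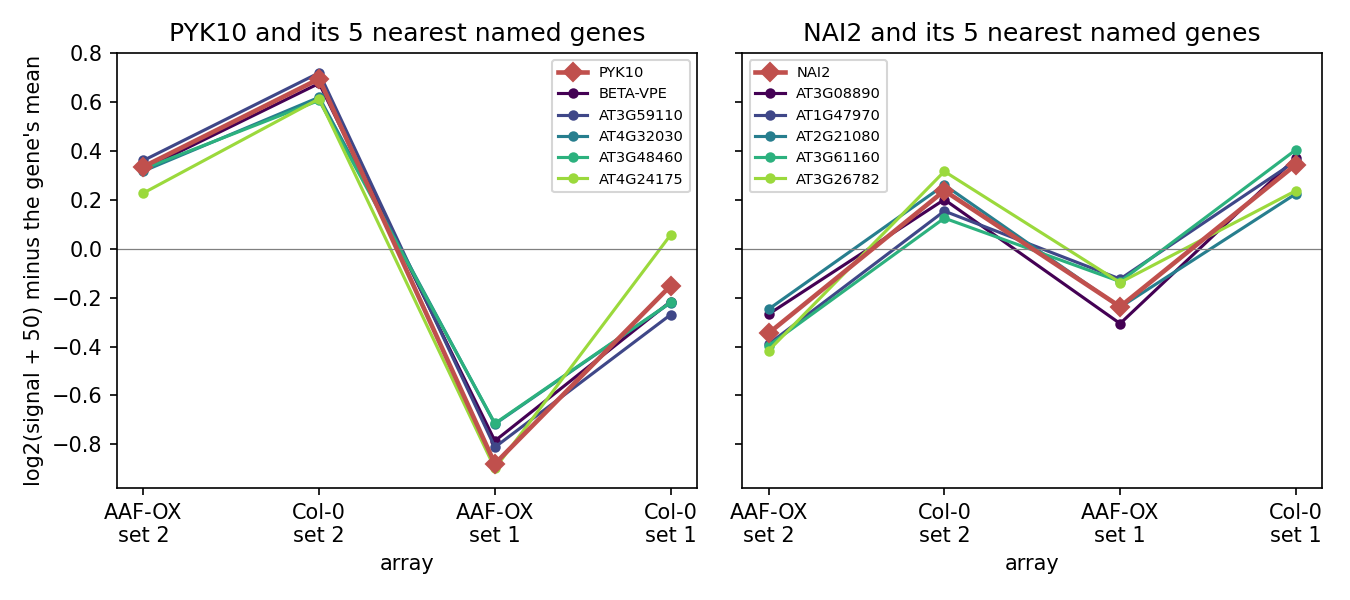
Log2(signal + 50) minus the gene's own mean (vertical axis) on the 4 arrays (horizontal axis) for PYK10 (left) and NAI2 (right), in red with diamonds, and for the 5 named genes nearest to each. The PYK10 panel is ordered mainly by set, and in the NAI2 panel both AAF-OX arrays lie below 0 and both Col-0 arrays above 0.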

How the data were processed

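Biotin-labelled total RNA of 1 sample was put on each Affymetrix array, per the labels' protocols. The deposited table holds linear intensity values, which the submitters' processing notes name as MAS5 signals (the sources used here give no version). The authors scaled each array, and the mean trimmed by 2% at each end was 500.04 to 500.05. Detection calls were not used here. Signals were taken as log2(signal + 50). The 64 controls and 9154 probe sets with a mean under 100 were left out, and 13592 were tested. Names came from the platform's gene table: 13513 probe sets had 1 gene, of which 13436 could be matched to loci in the TAIR10.1 table, 503 had several and 8730 are unnamed here. No coordinates are given, since no build is named for the probes. Cross-hybridisation with related β-glucosidase transcripts was not tested.

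Differences were fitted with limma 3.58.1 in R 4.3.3 (lmFit, then eBayes with a trend on intensity; two-sided tests; Benjamini-Hochberg adjustment over all tested probe sets; threshold 0.05). The main genotype model has no other term and leaves 2 residual degrees of freedom. The blocked model adds the replicate number (1 residual and 10.7 prior degrees of freedom) and also gives the set contrast. The series states 2 independent sets, and deviations of same-numbered arrays from their group means correlated at 0.856. The fits were tested on simulated data.

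The genes, the 10 gene lists (140 memberships, 3 left out because symbol and locus disagreed) and the tests were chosen with earlier results of these data known. Named were PYK10, NAI2 and AAF, all tested genes of the ER body and PYK10 complex lists, up to 4 called genes of each other list or otherwise the 2 lowest by unadjusted p, the 5 nearest genes of each member and at most 2 chromosomal neighbours on each. Other genes were picked after their values were seen, where the text says so. Alternatives were the block, no genotype term, each array left out, a fit without the intensity trend, median centring, quantile normalization, a filter at 250 or none, and pseudocounts of 1 and 100.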

Additional observations from a re-analysis of the deposited data

How the results depend on the processing

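The precision is limited by 2 arrays per genotype, and signals under 50 made up 30.1% to 31.4% of each array, so dim list members could not be compared. The replicate block took the count of probe sets called between genotypes from 0 to 210. With the block it was 233 with the filter at a mean of 250, 262 with quantile normalization, 276 with a pseudocount of 100, 373 with median centring, 76 with a pseudocount of 1, 21 without the intensity trend and 18 without the filter. Without the block every setting, and each array left out, gave 0 (limma). The list genes tested under each of these settings gave 0 calls (limma), and the filter decides which of them are tested. Of the 18 tested with the filter at a mean of 100, 6 had an unadjusted p under 0.05 in limma with the block and 0 without it. Over all 13592 tested probe sets, 1495 (11%) had one with the block and 117 without it. The block thus changed no call of a list gene.

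The log2 difference of PYK10 between genotypes was -0.57 to -0.52 under the other scalings and pseudocounts, and -1.15 to 0.0636 with 1 array left out (0.0636 without AAF-OX replicate 1), which mixes the set difference into it. NAI2 had -0.69 with a pseudocount of 1 and -0.50 with one of 100, as the construction of the scale implies, and -0.64 to -0.53 with 1 array left out. Between sets, the PYK10 call held under all settings with 4 arrays, at 0.99 to 1.11. With 1 array left out and no genotype term it was 0.67 to 1.40, not called without AAF-OX replicate 1 or Col-0 replicate 2. NAI2 was not called between sets under any setting, and with 1 array left out its value was -0.40 to 0.18, above 0 without AAF-OX replicate 2 or Col-0 replicate 1. The count of probe sets called between sets was 5350, and 3996 without the genotype term on all 4 arrays. Without that term and with 1 array left out it was 2331 to 3822, with 2331 without AAF-OX replicate 1, 2473 without Col-0 replicate 1 and 3329 without Col-0 replicate 2. Fewer arrays and the dropped term act together in these. Of the 5 genes nearest to PYK10, 2 stayed among the nearest 5 with a pseudocount of 1 and 2 with one of 100. For NAI2, 3 and 5 stayed.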
